A study of Mus musculus with 8 samples.

Results

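The miRNAs encoded in the Hox clusters were examined in the lungs of mice instilled with carbon black nanoparticles during pregnancy. They were taken by exact array name: mmu-miR-10a, mmu-miR-10b, mmu-miR-196a, mmu-miR-196b and mmu-miR-615-3p, 5 of the 611 mouse miRNAs on the array, and are written below without the species prefix. Lung RNA from female C57BL/6 dams was hybridised to 8 one-colour Agilent miRNA arrays. The 4 Printex 90 samples came from dams given a carbon black nanoparticle in nanopure water through the trachea, 0.067 mg at each of gestational days 7, 10, 15 and 18 (0.268 mg in all), and the 4 vehicle control samples from dams given nanopure water alone. Lungs were collected at weaning, 26 to 27 days after exposure, so the animals of both groups had been pregnant, and the labels state no age. The samples are whole lung tissue, and nothing in the labels ties each array to its own animal, so the tests below cover the spread between the samples as hybridised, which may be partly technical.

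Hox genes encode transcription factors that set the position of cells along the body axis, and their order in each cluster follows their anterior to posterior expression. Several miRNA genes lie between or within the Hox genes and are transcribed in overlapping domains. miR-10 genes sit beside the group 4 Hox genes, in the anterior part of the clusters, and miR-196 genes sit in the posterior part beside groups 9 and 10. miR-196 directs cleavage of Hoxb8 mRNA in mouse embryos, miR-10 represses HOXD10 in human cells, and lung development depends on anterior Hox genes such as Hoxa5.

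The mature sequences are shown because they define which of these miRNAs can share targets and which the array must tell apart. They are from RefSeq (GRCm38.p6), 5′ to 3′, with the seed (bases 2 to 8, the part that pairs with targets) in capitals:
miR-10a: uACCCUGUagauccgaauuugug
miR-10b: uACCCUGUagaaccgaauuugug
miR-196a: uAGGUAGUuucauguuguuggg
miR-196b: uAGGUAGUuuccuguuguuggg
miR-615-3p: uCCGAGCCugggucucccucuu
The 5 miRNAs carry 3 seeds: miR-10a and miR-10b share 1, miR-196a and miR-196b share another, and miR-615-3p has its own. Counted from 1 at the 5′ end, miR-10b differs from miR-10a by the single substitution U12A, and miR-196b from miR-196a by A12C, both outside the seed. Within each pair the array probes must therefore separate sequences that differ at 1 base, and cross-hybridisation between pair members was not tested. miR-615-3p is the most GC-rich of the 5, at 63.6%, against 43.5% for miR-10a and for miR-10b, 40.9% for miR-196a and 45.5% for miR-196b.

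In the RefSeq annotation of that build, mature miR-10a lies at chr11:96317186-96317208 (plus strand), within the span of Hoxb3 and next to Hoxb4. Mature miR-10b lies at chr2:74726074-74726096 (plus strand), within the spans of Hoxd3 and Hoxd4. miR-196a has 2 genes with the same mature sequence, at chr11:96265187-96265208 between Hoxb13 and Hoxb9 and at chr15:102973365-102973386 between Hoxc10 and Hoxc9 (both plus strand), so the array cannot tell which gene a signal comes from. Mature miR-196b lies at chr6:52230129-52230150 (minus strand) between Hoxa9 and Hoxa10, and mature miR-615-3p at chr15:103014969-103014990 (plus strand) within the span of Hoxc5.

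The array files give spot intensities with the background subtracted. Signals below are sums over the probes of a miRNA, divided by the 75th percentile of each array's 240 mouse miRNAs detected on all 8 arrays. Detection on an array required 1 probe of the miRNA to have at least 50% of its spots well above background. Between 248 and 283 mouse miRNAs were detected on the Printex 90 arrays and between 251 and 283 on the control arrays. The 75th percentile itself was 580.8 to 720.6 intensity units on the Printex 90 arrays and 628.4 to 804.7 on the control arrays. All arrays shared 1 slide and 1 scan, but the slide's row 2 held every Printex 90 sample and row 1 every control, so an effect of position and an effect of exposure cannot be told apart. The lung label was checked against markers: both endothelial miR-126 strands and all 5 miRNAs of the epithelial miR-200 family were detected on all 8 arrays, while the neural miR-124 and miR-9 were detected on none. Markers of other tissues were also present: 3 of the 4 striated muscle miRNAs were detected on all 8 arrays, and the hepatic miR-122 on 7. These signals varied widely within both groups. The summed striated muscle signal was 0.313 to 3.05 on Printex 90 arrays and 0.38 to 1.91 on control arrays. For miR-122 it was 0.0172 to 0.439 on Printex 90 arrays and 0.0269 to 0.303 on control arrays. The source of these signals was not tested. Of the 268 miRNAs tested in limma, 0% passed the adjusted threshold and 5.6% had an unadjusted p under 0.05. The neural members were not tested, and in the other marker lists 0 members passed either threshold. Their median log2 differences were -0.15 for the endothelial, 0.06 for the epithelial, -0.04 for the mesenchymal, -0.04 for the leukocyte, -0.25 for the red blood cell and -0.74 for the striated muscle markers, with 0.44 for the hepatic miR-122.

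The comparison of Printex 90 with vehicle asks whether the exposure changed these miRNAs in the lung. The miR-10 pair was detected on all 8 arrays and miR-615-3p on 7, while miR-196a and miR-196b were detected on none. Of the 3 tested members, 0 passed an adjusted p of 0.05, 0 had an unadjusted p under 0.05 in either direction and 0 had groups that did not overlap. Over all 268 tested miRNAs, limma called 0% at the adjusted threshold, 5.6% had an unadjusted p under 0.05 (2.99% higher and 2.61% lower after Printex 90), and 1.49% had groups that did not overlap. Without Printex 90 replicate 3, limma called 2 miRNAs, miR-21 and miR-146b, and 0 of the members. The members' median log2 difference was -0.04 (1 higher, 2 lower), beside -0.05 over all tested miRNAs.

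miR-10a of the HoxB cluster, which restrains NF-kB signalling in human endothelial cells, measured 1.94, 2.21, 2.52 and 2.04 on Printex 90 replicates 1 to 4, against 2.33, 2.01, 2.49 and 2.36 on control replicates 1 to 4. The groups overlapped, with the highest array of each group at nearly the same level and the lowest 2 of all 8 arrays divided between the groups. The means were 2.18 ± 0.257 after Printex 90 and 2.30 ± 0.206 in controls (SD, n = 4 each), a 0.945-fold difference with a 95% interval of 0.802 to 1.11. The log2 difference of -0.08 (SE 0.10) did not pass (limma adjusted p = 0.767). Both probes of miR-10a were detected on every array and differed in the same direction, by -0.08 and -0.09 on the log2 scale. In whole tissue, fewer cells of a type and less of a miRNA per cell cannot be told apart.

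miR-10b of the HoxD cluster, linked to invasion of human breast cancer cells, measured 0.180, 0.172, 0.191 and 0.162 on Printex 90 replicates 1 to 4, against 0.175, 0.160, 0.190 and 0.167 on control replicates 1 to 4. The ranges of the groups nearly coincided. The means were 0.176 ± 0.0126 after Printex 90 and 0.173 ± 0.0128 in controls (SD, n = 4 each), a 1.02-fold difference with a 95% interval of 0.906 to 1.14. The log2 difference was 0.02 (SE 0.07, limma adjusted p = 0.918), and both probes were detected on all 8 arrays, with differences of 0.02 and 0.04. The sign of this difference depended on the scaling and on 1 array: it was -0.05 with no scaling between arrays and -0.03 without vehicle control replicate 2.

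miR-615-3p of the HoxC cluster lay near background, and 50 of its 156 kept spots over the 8 arrays were well above it. It measured 0.10, 0.0859, 0.0482 and 0.0604 on Printex 90 replicates 1 to 4, against 0.0687, 0.0842, 0.0839 and 0.0578 on control replicates 1 to 4. Printex 90 held both the highest array and the lowest, replicate 3, where it was not detected. The means were 0.0737 ± 0.0237 after Printex 90 and 0.0736 ± 0.0128 in controls (SD, n = 4 each), a 0.972-fold difference on the log scale with a 95% interval of 0.642 to 1.47. The log2 difference was -0.04 (SE 0.25, limma adjusted p = 0.939). Its 4 probes did not share a direction, with differences from -0.19 to 0.18, and the 2 dimmer ones were detected on no array. Without Printex 90 replicate 3, the array with the lowest 75th percentile, the log2 difference was 0.22, and without Printex 90 replicate 1 it was -0.21. The sign also turned without Printex 90 replicate 4 (0.04), without vehicle control replicate 2 (0.02) and without vehicle control replicate 3 (0.02).

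**Figure D1:**
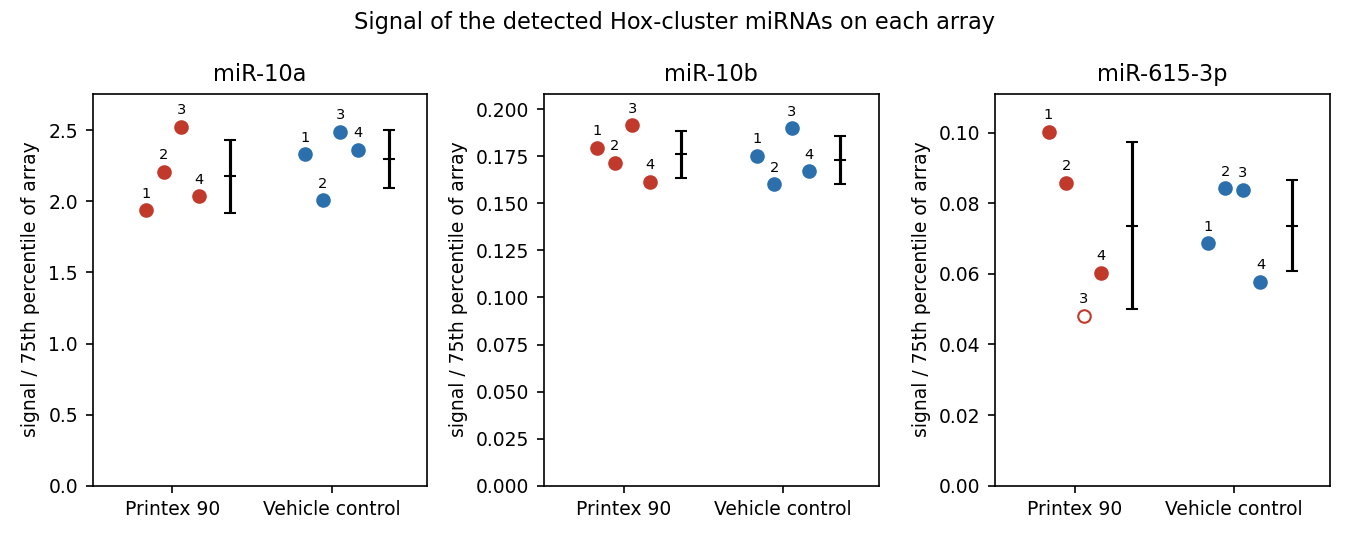
Signal of miR-10a, miR-10b and miR-615-3p on each array, relative to the array's 75th percentile (vertical axis, starting at 0). Points are arrays with their replicate number, the open point is an array where the miRNA was not detected, and bars are mean ± SD of 4 arrays. The groups overlap in all 3 panels, and miR-615-3p spreads most widely after Printex 90, from 0.0482 to 0.10.

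The intervals give the precision of the difference between the groups as hybridised, in which exposure and slide row cannot be told apart. A change due to exposure alone is therefore not bounded by them. Nor is a change between animals, since the labels do not tie each array to its own animal. The intervals reached 0.24 log2 units to either side of the estimate for miR-10a, 0.17 for miR-10b and 0.60 for miR-615-3p. The median over all tested miRNAs was 0.19. Of the 268 tested miRNAs, 128 had a larger absolute log2 difference than miR-10a, 219 than miR-10b and 189 than miR-615-3p. Relative to the median of all tested miRNAs, the log2 differences were -0.04 for miR-10a, 0.07 for miR-10b and 0.01 for miR-615-3p.

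**Figure D2:**
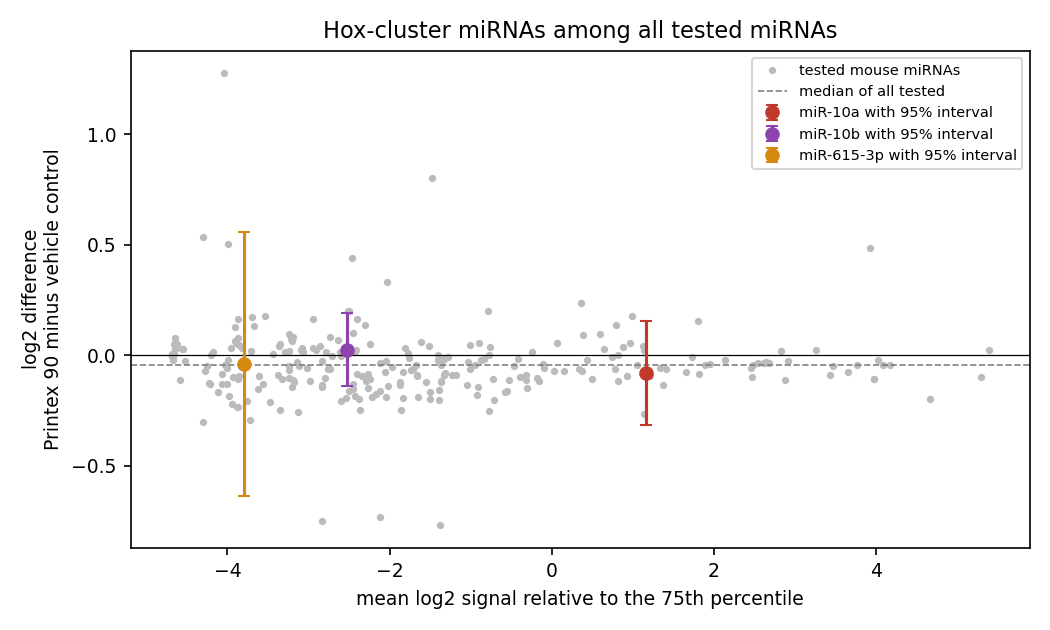
Log2 difference (Printex 90 minus vehicle control, vertical axis) against mean log2 signal (horizontal axis) for the 268 tested miRNAs, with the Hox-cluster miRNAs in colour and their 95% intervals as bars. All 3 intervals include 0, and that of miR-615-3p is the widest of the 3, from -0.64 to 0.56.

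Spread between arrays was modest for the miR-10 pair. Over the 8 arrays miR-10a ranged 1.30-fold and miR-10b 1.19-fold, beside a median of 1.31-fold for the 240 miRNAs detected on all arrays. miR-615-3p ranged 2.08-fold, and 5.0% of those 240 had a wider range. It was not detected on every array, so it is not among the 240, and it was not compared with equally dim miRNAs. Spots of the same miR-10a probe on 1 array varied with a median coefficient of variation of 3.19% for the first probe and 3.58% for the second. The arrays of a group differed by more than these spots did: the coefficient of variation of miR-10a between arrays was 11.8% after Printex 90 and 8.96% in controls. For miR-615-3p the spots of a probe varied by a median of 17.3% to 30.5%.

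miR-10a and miR-10b come from different Hox clusters, and the log2 ratio within an array asks whether they moved apart, without depending on a scaling factor per array. The log2 ratio of miR-10a to miR-10b was 3.43, 3.68, 3.72 and 3.66 on Printex 90 replicates 1 to 4, against 3.73, 3.65, 3.71 and 3.82 on control replicates 1 to 4. Probe response and abundance both enter the level of this ratio and were not separated, so only its difference between groups is read. Replicate 1 of Printex 90 was lowest and the other 3 lay within the control range. The means were 3.62 ± 0.13 after Printex 90 and 3.73 ± 0.07 in controls (SD, n = 4 each), a difference of -0.11 (exact permutation p = 0.229, 2-sided, where 4 against 4 allows no p below 0.0286). Without Printex 90 replicate 1 it was -0.04. The same ratio for miR-196a and miR-196b was not formed, since neither was detected, so no adjustment over ratios was made.

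miR-10a and miR-10b each lay on the same side of their own 8-array mean on 6 of 8 arrays. The exceptions were Printex 90 replicate 1 and vehicle control replicate 4. Both miRNAs carry the same scaling factor on each array, and this count was not made for other pairs. Likeness between miRNAs was measured as the mean absolute gap between log2 profiles over the 8 arrays, each centred on its own mean, among the miRNAs detected on all arrays. The profile closest to miR-10a was that of miR-126-3p, an endothelial marker, with a gap of 0.036, followed by the collagen-repressing miR-29a (0.046) and miR-29c (0.048), where the median gap to the 239 other miRNAs was 0.137. Closest to miR-10b were miR-872 (0.047), miR-29a (0.051) and the hypoxia-induced miR-210 (0.051), where the median gap was 0.112. miR-10b stood 29th by this measure among the neighbours of miR-10a (gap 0.073). These are descriptions of 8 arrays that share a slide, and nearly flat profiles lie close to each other. The summed signal of the 2 endothelial markers was 34.4 to 42.3 on Printex 90 arrays and 37.3 to 43.0 on control arrays. Nearly all of this sum was miR-126-3p, with means of 37.9 after Printex 90 and 40.6 in controls. The means of miR-126-5p were 0.574 and 0.656. The part of the endothelial signal in the miR-10a values was not tested.

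The posterior miR-196 pair was below detection in these lungs. miR-196a measured -0.00031 to 0.00743 on the Printex 90 arrays and 0.00127 to 0.00498 on the control arrays. miR-196b measured 0.00238 to 0.00558 on the Printex 90 arrays and 0.00114 to 0.0057 on the control arrays. All these values lay below the dimmest mouse miRNA detected on the same array, which stood at 0.0205 to 0.0271 on Printex 90 arrays and 0.0178 to 0.0249 on controls. Of 312 spots kept for the 6 miR-196 probes over the 8 arrays, 1 was well above background. With both groups below detection, no fold difference is given, and a signal under this limit was not detectable rather than shown to be absent.

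The intensities of the probes place these values against the array's own negative controls. The 6 miR-196 probes had mean intensities of -1.19 to 2.65 over the 8 arrays, while 6 of the 7 negative-control probes had 0.741 to 3.39 and the other had 17.0 to 25.9. The 4 probes of miR-615-3p, at 4.48 to 25.4, lay above those 6 negative controls on every array, and 1 of the 4 also exceeded the brightest negative control of the same array, on 3 of 8 arrays. The dimmer miR-10b probe, at 18.0 to 23.4, exceeded the brightest negative control on 2 of 8 arrays, while the brighter one, at 83.7 to 111.5, lay above all of them on every array. Of 39 herpesvirus miRNAs on the array, which a lung free of those viruses lacks, 0 had a mean signal above that of miR-10a, 1 above that of miR-10b and 2 above that of miR-615-3p. Signals of the size of miR-10b and miR-615-3p therefore also occurred on probes for viral miRNAs.

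**Figure D3:**
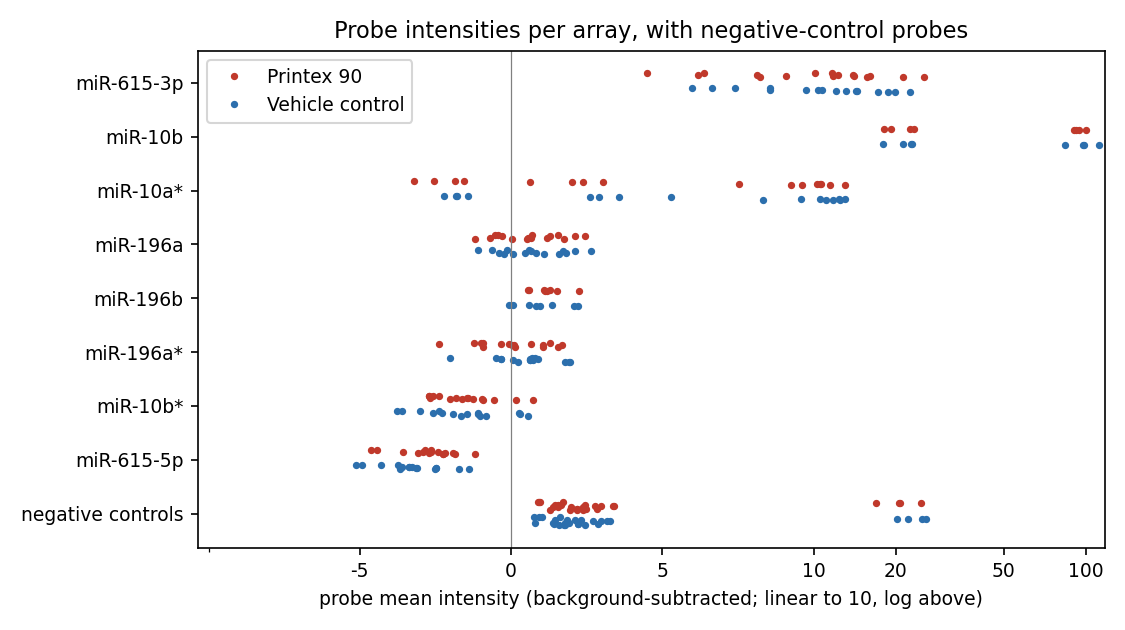
Mean background-subtracted intensity of each probe on each array (horizontal axis, linear up to 10 and logarithmic above) for the Hox-cluster miRNAs other than miR-10a, for the other strands of the hairpins, and for the 7 negative-control probes. Each point is 1 probe on 1 array. The miR-196 probes, up to 2.65, lie with the 6 dim negative controls, and the brighter miR-10b probe, at 83.7 or more, lies clear of them.

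Of the other strands of the same hairpins analysed here, only miR-10a* was detected on any array. miR-10a* was detected on 1 array of each group, at 0.0275 to 0.0333 on the Printex 90 arrays and 0.0295 to 0.0415 on the control arrays, and was not tested. miR-10b*, miR-196a* and miR-615-5p were detected on none of the 8 arrays. miR-196b* was not analysed here.

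Families related in sequence were described for context. The miR-99/100 family belongs to the same ancestral family as miR-10, but its seed differs, and miR-10a shares a run of 10 bases with miR-99a and of 11 bases with miR-100:
miR-99a: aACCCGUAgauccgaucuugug
miR-100: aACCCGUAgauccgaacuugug
Its 3 members were detected on all arrays and had log2 differences of -0.01 to 0.001 (median -0.01). let-7 miRNAs accumulate as cells differentiate and restrain growth, and bases 3 to 9 of let-7a equal the miR-196 seed:
let-7a: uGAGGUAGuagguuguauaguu
The 9 let-7 family members, detected on all arrays, had log2 differences of -0.05 to 0.03 (median -0.04, 2 higher and 7 lower). The count past the adjusted threshold in limma was 0 in both families, and 0 members had an unadjusted p under 0.05. Over all 268 tested miRNAs the shares were 0% and 5.6%, and the median log2 difference was -0.05.

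**Figure D4:**
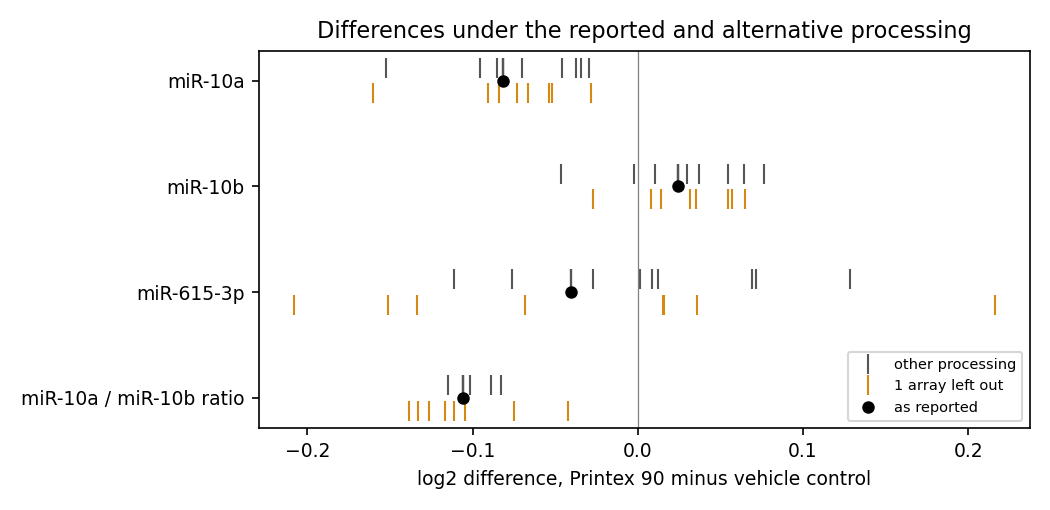
Log2 differences (Printex 90 minus vehicle control, horizontal axis) of the tested Hox-cluster miRNAs and of the miR-10a to miR-10b ratio as reported (points) and under alternatives (ticks, with 1 array left out in orange). miR-10a ran from -0.16 to -0.03 and lay below 0 in all 22 alternatives, while miR-10b (-0.05 to 0.08) and miR-615-3p (-0.21 to 0.22) lay on both sides of 0. Changes of floor, filter, spread model or block could not move the miR-10a estimate, so its sign there was fixed. The sign of the ratio was likewise fixed under a scaling factor per array, the floor and the block.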

How the data were processed

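The labels' protocols name a miRvana kit for RNA enriched in small species and Agilent's miRNA kit for labelling. The spot intensity values were made by the authors with Feature Extraction 10.7.3.1 (Agilent), grid 021828, background being subtracted within each array and nothing normalized between arrays, per the file headers. A second deposited table has the authors' log2 values, and how they were made is not stated in the labels or headers. Medians of quantile-normalized log2 median spot signals tracked it on every array (largest gap 0.125). Its column medians were 5.44 to 5.46, and it served as an alternative.

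Here control spots and outlier spots (2.25% to 2.76% per array) were left out, with 0 saturated among those kept. Values are means over the spots of each probe, summed over probes, scaled as the report states and floored at 0.0388, the 5th percentile of detected signals, before log2. Fold differences near the floor are understated. Mouse miRNAs had to be detected on 4 or more arrays, which left 268 for limma 3.58.1 (lmFit and eBayes in R 4.3.3). P-values are 2-sided and were adjusted over all 268 by Benjamini-Hochberg. This step was tested on simulated data. The ratio was compared by exact permutation over 70 assignments. Named miRNAs were the members, the other strands of their hairpins, the miR-99/100 and let-7 families, marker miRNAs and the 3 closest profiles. The members, lists and tests were chosen with earlier results of these data known. Alternatives covered scaling, background, probe summary, floor, filter, spread model, array weights, the replicate block and each array left out. The number of arrays limits the precision. Array names can be old: the 5 members were matched to RefSeq under their present names (miR-10a-5p for miR-10a, for example).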

Additional observations from a re-analysis of the deposited data

How the results depend on the processing

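Neither the tested Hox-cluster miRNAs nor the miR-10a to miR-10b ratio passed under any alternative that could test them (limma adjusted p 0.581 to 1.00 for miR-10a, 0.778 to 1.00 for miR-10b and 0.754 to 1.00 for miR-615-3p; exact permutation p 0.114 to 0.543 for the ratio), and miR-10a and the ratio kept their direction in all of them. miR-615-3p was not tested with the filter for detection on all 8 arrays, and the ratio's test over pairs could not reach 0.05. With limma, the number of miRNAs past the adjusted threshold was 0 in every alternative except without Printex 90 replicate 3, where it was 2, miR-21 (0.63) and miR-146b (1.06), named after their values were seen (adjusted p = 0.0198 for both, range 0 to 2 with 1 array left out). miR-10b turned to -0.046 with no scaling between arrays and to -0.0022 with array weights, and ran from -0.027 (without vehicle control replicate 2) to 0.065 with 1 array left out. miR-615-3p turned to 0.012 with the percentile over all mouse miRNAs, 0.0015 with quantile normalization, 0.069 with normexp, 0.0085 with the mean of the probes' log2 signals, 0.13 with Feature Extraction's total gene signal and 0.071 with the floor doubled, and ran from -0.21 to 0.22 with 1 array left out. All these turns lie within the 95% intervals, and the cause was not tested. With 1 array left out, miR-10a ran from -0.16 to -0.03 and the ratio from -0.14 to -0.04. The files used here hold no mean spot signal, so normexp used the median signal. With the replicate block the count of calls was 0. The log2 differences remained -0.08, 0.02 and -0.04, which a block balanced over the groups cannot change (limma adjusted p = 0.777, 0.796 and 0.944). The deviations of same-numbered arrays from their group means correlated at -0.14, -0.60, -0.38 and 0.75 for replicates 1 to 4, above 0 for replicate 4 alone, and the labels do not link the numbers, so they were not taken as pairs. Same-numbered arrays do share a slide column, so this block is also the block for column. Within columns 1 to 4 the log2 differences, each of 1 array against 1, untested and added after seeing the data, were -0.27, 0.14, 0.02 and -0.22 for miR-10a, 0.03, 0.10, 0.01 and -0.05 for miR-10b, and 0.55, 0.03, -0.80 and 0.06 for miR-615-3p. The ratio with the replicate block was -0.11 (exact permutation p = 0.50, 2-sided). Signal over background limits miR-615-3p and the miR-196 pair.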
